A study of Drosophila melanogaster with 31 samples.

Results

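The chemosensory genes of *Drosophila melanogaster* were taken here as the annotated protein-coding genes on the dm6 chromosome arms whose symbols are Or, Gr, Ir or Obp followed by a digit. There were 230 of them among 13968 protein-coding genes, with 59 odorant receptor (Or), 60 gustatory receptor (Gr), 60 ionotropic receptor (Ir) and 51 odorant-binding protein (Obp) genes. Their start sites were examined in 12 lists of accessible regions from ATAC-seq, an assay in which a transposase cuts open chromatin, made from 31 samples of embryos that lack the transcription factor Grainy head (Grh) and of their siblings. A gene was called open in a list when a peak summit lay within 1 kb of one of its annotated start sites.

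All embryos came from crosses with grhB37, a null allele. Embryos without maternal Grh (grhM−) came from germline clones of grhB37 made by heat-shock FLP-FRT, and were set against grhM+ siblings at stage 5 and stage 6. Embryos homozygous for the allele (grhB37/B37) were set against heterozygous grhB37/+ siblings at stage 6 and at 11-12 h after egg laying. Embryos that lack both supplies (grhM−Z−, genotype grhB37/grhB37 without maternal grh) were set against grhM+Z+ siblings, which are grhB37/+, at stage 5 and stage 6. Each early group has 3 single embryos, except grhM+Z+ at stage 6 with 2, and each group at 11-12 h is 1 library of pooled whole embryos. The allele was kept over a CyO balancer in the zygotic crosses, so the chromosome 2 of mutants and siblings differs beyond grh, and 108 of the 230 genes lie on chromosome 2. Accessibility does not report the allele itself, and a summit lay within 1 kb of a grh start in all 12 lists.

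Odorant receptors are membrane channels that detect volatile chemicals in the antenna and palp, most gustatory receptors detect sugars, bitter compounds or carbon dioxide, and ionotropic receptors are relatives of glutamate receptors that serve smell, taste, temperature and humidity sensing. Odorant-binding proteins are small secreted proteins of the fluid around sensory hairs. Many of these genes are used in a few sensory neurons or support cells of larvae and adults. A neuron type typically expresses few receptors, and many members sit in tandem clusters. At stage 5 the embryo is a cellularising blastoderm, at stage 6 it gastrulates, and at 11-12 h organs are being formed. Whole embryos were assayed, so a region open in few cells gives little signal.

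The lists differ in length, which bears on every count below. They held 31898 to 45468 peaks at stage 5, 38030 to 81187 at stage 6, and 10509 (grhB37/B37) and 20540 (grhB37/+) at 11-12 h, with a median local background of 3.53 to 15.8 fragments at the summits. The grhB37/B37 list at 11-12 h is the shortest and stands apart from the rest. Among 6 genes of the cellularising blastoderm, 5 or 6 were at the strongest 5000 peaks in each stage 5 list. At stage 6 there were 1 or 2 and at 11-12 h 0, in the order of the labels. Of 7 neuron genes there were 1, 0 or 1, and 3 at these stages, and of 8 cuticle genes 0, 0 or 1, and 2 or 3. Counts at any rank separated the stages less. They were 6, 4 to 6 and 0 for blastoderm genes. For neuron genes they were 4 to 6, 5 to 7, and 3 or 6, and for cuticle genes 3 to 6, 3 to 8, and 4 or 6.

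Chemosensory genes were open less often than protein-coding genes as a whole in each of the 12 lists, and most of their peaks were weak. At stage 5, 78 of 230 were open in grhM− (33.9%, with 67.3% of all protein-coding genes), 63 in grhM+ (27.4%, with 60.1%), 88 in grhM−Z− (38.3%, with 70.6%) and 84 in grhM+Z+ (36.5%, with 71.4%). At stage 6, 105 were open in grhM− (45.7%, with 71.9%), 110 in grhM+ (47.8%, with 74.3%), 103 in grhM−Z− (44.8%, with 75.9%) and 92 in grhM+Z+ (40.0%, with 71.6%). The longest lists, those of the zygotic experiment at stage 6, had 175 open in grhB37/B37 (76.1%, with 86.7%) and 154 in grhB37/+ (67.0%, with 84.4%). At 11-12 h the counts were 17 in grhB37/B37 (7.39%, with 30.1%) and 29 in grhB37/+ (12.6%, with 59.8%). Except in the maternal and zygotic experiment, each of these is 1 list with no spread, so no test was made across lists.

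**Figure D1:**
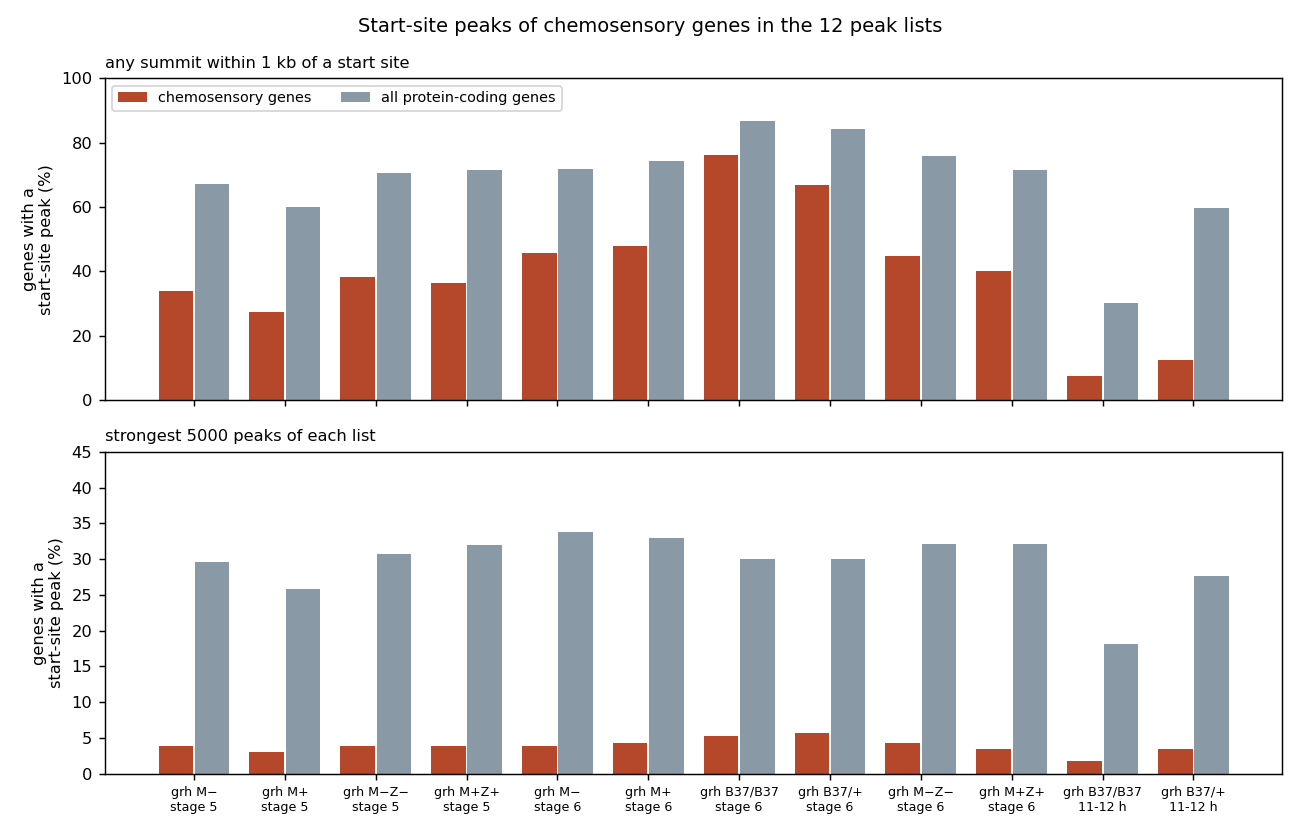
Percentage of the 230 chemosensory genes (left bar of each pair) and of all 13968 protein-coding genes (right bar) with a start-site peak in each of the 12 lists, for any summit within 1 kb (upper panel) and for the strongest 5000 peaks (lower panel). The chemosensory bar is the lower one in each pair, from 7.39% to 76.1% above and from 1.74% to 5.65% below.

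Few of the strongest peaks lay at chemosensory starts. Peaks were ranked by their −log10 q, and among the strongest 5000 of a list 9, 7, 9 and 9 chemosensory genes had one at stage 5 in grhM−, grhM+, grhM−Z− and grhM+Z+, beside 29.6%, 25.8%, 30.8% and 32.0% of all protein-coding genes. At stage 6 there were 9 in grhM−, 10 in grhM+, 12 in grhB37/B37, 13 in grhB37/+, 10 in grhM−Z− and 8 in grhM+Z+, beside 33.8%, 33.0%, 30.1%, 30.0%, 32.1% and 32.1%. At 11-12 h there were 4 in grhB37/B37 and 8 in grhB37/+, beside 18.1% and 27.6%. The chemosensory shares were 1.74% to 5.65% of the 230.

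The fold enrichment of a summit, which is its pileup over the local background, showed the same. Its median over open chemosensory genes was 2.76 to 3.85 in the 10 early lists, where it was 4.17 to 7.23 over all open protein-coding genes. At 11-12 h the medians were 2.06 in grhB37/B37 (all genes 2.44) and 2.25 in grhB37/+ (all genes 2.92). A fold enrichment under 5 was found for 69.6% to 85.7% of the open chemosensory genes in the early lists. In grhM+Z+ at stage 5 the median summit of an open chemosensory gene rested on 10.5 fragments, so many of these calls are near the limit of what the authors' threshold could detect.

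More chemosensory genes were open at stage 6 than at stage 5 in each of the 4 pairs of lists, of which the grhM+Z+ stage 6 list was shorter than its stage 5 list (40898 and 45468 peaks) and the others longer. With each early list limited to its strongest 30000 peaks, a choice made after seeing the data, the counts were 71 at stage 6 and 45 at stage 5 in grhM−, 57 and 50 in grhM+, 54 and 44 in grhM−Z−, and 57 and 44 in grhM+Z+, so each pair was still higher at stage 6. The shares of all protein-coding genes were higher at stage 6 too. They were 66.8% and 63.1% in grhM−, 66.1% and 58.1% in grhM+, 66.4% and 63.2% in grhM−Z−, and 65.8% and 63.7% in grhM+Z+. The zygotic lists at stage 6, which have no stage 5 partner, had 49 in grhB37/B37 and 53 in grhB37/+, beside 66.1% of all protein-coding genes in each. With the strongest 10000 peaks of every list, 11 to 14 were open at stage 5, 14 to 17 at stage 6, and 14 (grhB37/B37) and 13 (grhB37/+) at 11-12 h, beside 39.7% to 46.4%, 46.0% to 49.3%, 29.2% and 44.9% of all protein-coding genes.

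The low share was also found among genes that stand alone. Of the 230 genes, 98 had no other annotated start within 2 kb, and 18.4% to 34.7% of them were open at stage 5, where 51.3% to 64.5% of the 4659 protein-coding genes that stand alone were. At stage 6 the shares were 38.8% to 79.6% of the 98 and 62.9% to 83.1% of the 4659, and in grhB37/B37, the longest list, they came close, at 79.6% and 83.1%. At 11-12 h they were 3.06% and 28.1% in grhB37/B37, and 8.16% and 51.4% in grhB37/+. Among the strongest 5000 peaks, 0 to 2 of the 98 had one in any list, beside 17.7% to 23.3% of the 4659.

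The order of the families varied between lists, and differences between them were not tested. In grhM+ at stage 5, 15.3% of the Or genes and 39.2% of the Obp genes were open, and in grhM− at stage 6, 39.0% of the Or genes and 58.3% of the Gr genes. At stage 5, 15.3% to 40.7% of the Or genes, 28.3% to 38.3% of the Gr genes, 28.3% to 38.3% of the Ir genes and 29.4% to 43.1% of the Obp genes were open. At stage 6 the ranges were 39.0% to 78.0% (Or), 36.7% to 83.3% (Gr), 36.7% to 75.0% (Ir) and 41.2% to 66.7% (Obp). At 11-12 h, 2 of 60 Gr genes were open in grhB37/B37 and 10 in grhB37/+.

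Over the 12 lists, 28 chemosensory genes were open in none (12.2%, with 6.11% of all protein-coding genes), among them the co-receptors Ir8a and Ir25a, the bitter receptor Gr66a and the cool receptor Ir21a. Only 5 were open in all 12 (2.17%, with 23.7%), and 20 in all 10 early lists (8.70%, with 51.7%). At 11-12 h 38 chemosensory genes were open in at least 1 list, 8 in both and 0 that no early list had. Of all 13968 protein-coding genes, 4062 were open in both late lists, 4294 in grhB37/+ alone and 143 in grhB37/B37 alone. The single chemosensory gene open in both late lists and in no stage 5 list was Or65c, a member of a 3-gene odorant receptor cluster. Its fold enrichments were 1.75 in grhB37/B37 and 1.85 in grhB37/+. How many of all protein-coding genes were open only at 11-12 h, or shared the Or65c pattern, was not counted.

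The start sites of chemosensory genes are less crowded than those of other genes, with another start within 1 kb for 29.6% of them and for 48.2% of all protein-coding genes, and 35 of the 230 start inside a gene of another kind. For each open gene it was asked whether its strongest summit lay nearer to its own start, to that of another chemosensory gene, or to a gene outside the families. Its own start was nearest for 64.7% to 81.8% of open chemosensory genes over the 12 lists, close to the 73.0% to 75.4% of all open protein-coding genes, and another chemosensory gene was nearest for 0 to 7. Among the strongest 5000 peaks this was turned round: the own start was nearest for 1 to 3 genes of a list, a gene outside the families for 3 to 10, and another chemosensory gene for 0. The matching share of all protein-coding genes at these peaks was not computed, so the turn cannot be called particular to chemosensory genes.

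In all, 17 chemosensory genes had a start within 1 kb of one of the strongest 5000 peaks of any list, and for 11 of these the summit was always nearer to the start of a gene outside the families than to their own. For this count, too, no share over all protein-coding genes was computed. Gr5a, a receptor for the sugar trehalose, shared in 11 lists a peak whose summit lay 4 to 43 bp from the start of Tre1, which codes for a receptor that guides germ cell migration. Gr63a, a subunit of the carbon dioxide receptor, had in the 10 early lists a peak 32 to 47 bp from the start of Lamtor4, which codes for a subunit of the Ragulator complex on lysosomes. Or67b lies inside Cyp40, a cyclophilin gene, and its peak lay 0 to 44 bp from the Cyp40 start in 10 lists. Ir60b, which acts in pharyngeal sugar sensing, had a peak 1 to 53 bp from the start of the mitochondrial gene Letm1 in 11 lists. Ir48c starts inside ths, which codes for a fibroblast growth factor, and its peak lay 197 to 348 bp from a ths start in all 12 lists. The rest were Or88a (CG12402), Obp28a (Ziz), Gr97a (CG5521), Obp51a (lncRNA:CR45256), Ir60e (CG13585) and Ir68a (lncRNA:CR44719), with the nearest gene in brackets.

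A peak among the strongest 5000 had its summit nearest to the own start for 6 genes. Gr39a, a gustatory receptor gene with 4 annotated start sites that lies in Mondo, had one in 9 lists. Its fold enrichment was 5.73 in grhM−, 5.50 in grhM+, 7.45 in grhM−Z− and 6.88 in grhM+Z+ at stage 5, and 7.06, 8.08, 6.79 and 7.96 in the same order at stage 6. Gr39a had values of 7.88 in grhB37/B37 and 8.83 in grhB37/+ at stage 6, and at 11-12 h it had none in grhB37/B37 and 3.23 in grhB37/+.

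The other 5 entered the strongest 5000 in 1 to 3 lists. Ir40a, which serves humidity sensing, had a summit 906 to 977 bp upstream of its start in the 10 early lists, with a best rank of 3873 in grhB37/B37 at stage 6. Obp99a had a summit 652 to 705 bp upstream in 9 of the early lists, with a best rank of 4007 in grhB37/B37 at stage 6, and the start of the channel gene ppk19 lies 799 bp from its own. Gr2a, which starts inside futsch, a gene for a microtubule-associated protein of neurons, was best placed at rank 4013 in grhM−Z− at stage 6. Obp83g and the bitter receptor gene Gr32a reached the strongest 5000 only at 11-12 h.

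The sequences under these summits are given because they are the strongest peaks within 1 kb for which a chemosensory start was the nearest one. Each is the dm6 reference (RefSeq sequence of the same assembly), + strand, 50 bp to either side of the summit in the list where the peak ranked best, with capitals for strings of Zelda (CAGGTAG), Grh (AACCGGTT or AACTGGTT), GAGA factor (GAGAGAG) or Dref (ATCGATA) on either strand. The windows are chr2L:21296655-21296755 (Gr39a), chr2L:22215254-22215354 (Ir40a), chr3R:29670902-29671002 (Obp99a), chrX:1451797-1451897 (Gr2a), chr3R:6112774-6112874 (Obp83g) and chr2L:11113513-11113613 (Gr32a).
Gr39a: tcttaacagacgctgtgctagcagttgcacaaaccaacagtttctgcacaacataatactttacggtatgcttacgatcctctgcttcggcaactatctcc
Ir40a: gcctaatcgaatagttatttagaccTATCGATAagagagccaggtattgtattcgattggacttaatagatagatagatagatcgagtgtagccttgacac
Obp99a: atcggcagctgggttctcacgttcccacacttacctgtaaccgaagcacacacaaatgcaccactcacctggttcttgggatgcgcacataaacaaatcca
Gr2a: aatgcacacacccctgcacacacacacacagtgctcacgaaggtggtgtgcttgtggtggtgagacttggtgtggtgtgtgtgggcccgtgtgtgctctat
Obp83g: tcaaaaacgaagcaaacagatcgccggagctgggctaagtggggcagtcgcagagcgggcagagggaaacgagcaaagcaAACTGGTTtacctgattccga
Gr32a: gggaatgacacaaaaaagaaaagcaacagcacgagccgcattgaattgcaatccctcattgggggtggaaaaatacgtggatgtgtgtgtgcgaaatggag
The Obp83g window, which comes from the 11-12 h list of grhB37/B37, holds a Grh string that begins 30 bp from the summit. The Ir40a window holds the Dref string once on each strand, in overlapping positions. The other 4 windows hold none of the strings, which says only that these letters are not within 50 bp of the summit.

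Over all start-site peaks, the Dref string was less frequent at chemosensory starts than elsewhere in each of the 12 lists and the GAGA string in 11, while the Grh string was more frequent in all 12 and the Zelda string in 8, each on 5 or fewer chemosensory peaks a list. At stage 5, 2 to 4 of 70 to 108 chemosensory start-site peaks held the Zelda string (2.17% to 5.71%), where 2.26% to 3.53% of all start-site peaks did. The Dref string was at 2.86% to 3.70% of the chemosensory peaks and 9.75% to 10.5% of all at stage 5, and at 2.98% to 4.55% and 7.50% to 10.1% at stage 6. The GAGA string was at 0.926% to 3.26% and 6.92% to 7.40% at stage 5. The Grh string was at 1.09% to 1.92% of chemosensory peaks and 0.842% to 0.969% of all at stage 5, at 1.28% to 3.01% and 0.845% to 1.36% at stage 6, and at 2 of 17 in grhB37/B37 and 1 of 29 in grhB37/+ at 11-12 h, where 1.32% and 1.12% of all peaks held it. Windows reached 50 bp to either side of the summit and both strands were read. The lists share most of their peaks, so their number is no measure of certainty.

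Or22b, an odorant receptor gene for fruit esters that lies in tandem with its close copy Or22a, where reads that map to both were removed, illustrates a strong peak that the 1 kb rule does not assign. It spans chr2L:1522697-1524257, and its own start had only weak summits, 628 to 669 bp inside the gene, in grhM−, grhB37/B37 and grhB37/+ at stage 6, with fold enrichments of 2.09, 1.94 and 1.98. No stage 5 or 11-12 h list had one for Or22b. The strong peak lies past the other end of the gene, with its summit 1083 to 1161 bp beyond the end of Or22b and 2643 to 2721 bp from its start at stage 5. No gene is annotated there, the next protein-coding gene on that side, haf, starts 29743 bp away, and halo, a gene of cellularisation, starts 7238 bp away on the other side of Or22a.

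The peak downstream of Or22b was among the strongest of the genome at stage 5 and far down the lists at stage 6. It ranked 984 in grhM−, 198 in grhM+, 1251 in grhM−Z− and 690 in grhM+Z+ at stage 5, with fold enrichments of 9.23, 7.95, 10.8 and 10.7. At stage 6 it ranked 19602 in grhM−, 18188 in grhM+, 24246 in grhB37/B37, 27286 in grhB37/+, 16836 in grhM−Z− and 17469 in grhM+Z+, with fold enrichments of 3.44, 3.77, 4.71, 4.15, 5.38 and 4.96. At 11-12 h it was in neither list. In single stage 6 embryos its fold enrichment was 3.35, 5.38 and 5.12 in grhM−Z− and 4.96 in 1 of the 2 grhM+Z+ embryos, with no peak in the other. In stage 5 embryos it was 10.8, 8.75 and 11.9 in grhM−Z− and 8.23, 10.7 and 7.63 in grhM+Z+. The stages did not overlap, while the genotypes did within each stage. The locus was described because it was known to fall between these stages, so no test is given. Its strongest window, chr2L:1525336-1525436 (+ strand) in grhM+ at stage 5, carries the Zelda string, in capitals, beginning 18 bp before the summit.
downstream of Or22b: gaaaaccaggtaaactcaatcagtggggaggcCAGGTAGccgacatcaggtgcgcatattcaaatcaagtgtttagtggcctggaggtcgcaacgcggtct

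**Figure D2:**
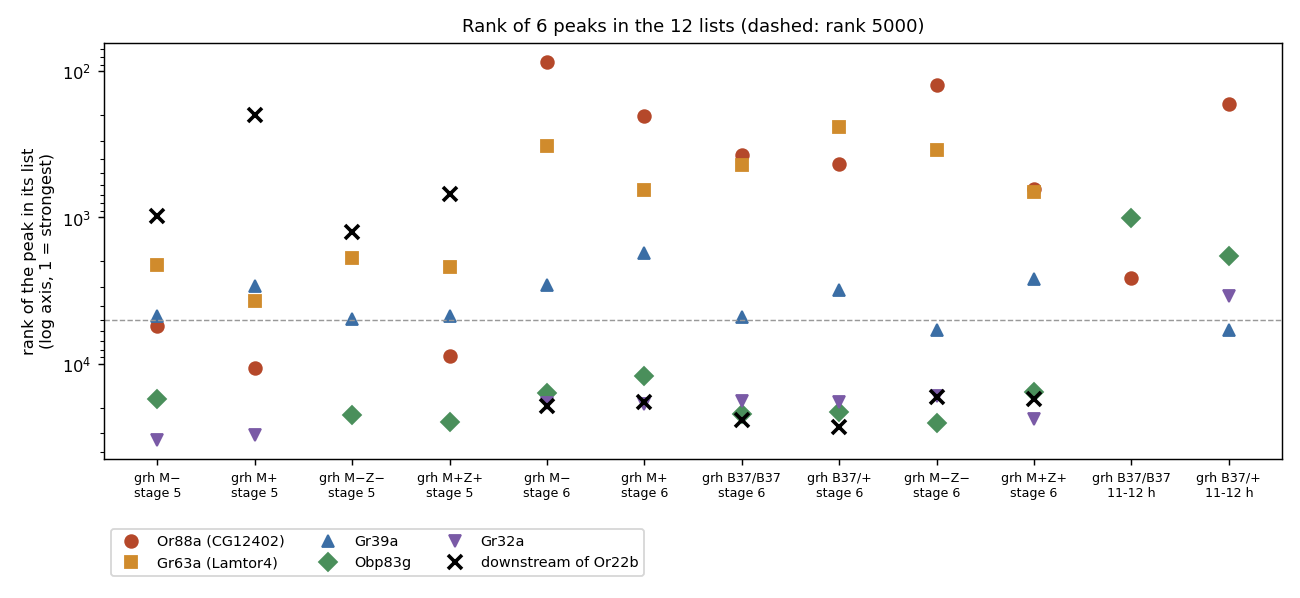
Rank of 6 peaks (log axis, 1 = strongest, dashed line at rank 5000) in each of the 12 lists; the gene whose start is nearest stands in brackets where it is no chemosensory gene. No symbol means that the list has no peak there or that the strongest summit of the joined peak lies beyond 1 kb, as for Or88a in grhM−Z− at stage 5. The peak downstream of Or22b ranks 198 to 1251 at stage 5 and 16836 to 27286 at stage 6, and Obp83g ranks 1006 and 1843 at 11-12 h.

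Other strong peaks also lie away from the starts. Counted over the 12 lists, 20 of the 230 chemosensory genes were the nearest gene to at least 1 of the strongest 5000 peaks at more than 1 kb. The matching share of all protein-coding genes was not computed, so this count cannot be called high or low. Ir21a had such peaks in 10 lists, 2021 to 10615 bp from its start, although no list had one within 1 kb. Gr93a, a receptor for caffeine, had them in 7 lists, 2945 to 3060 bp away, and Ir41a in 7, 23081 to 26173 bp away. Nearness alone does not say which gene such a peak serves.

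Of the co-receptors, which work with many other receptors, 2 had no start-site peak at all. Ir8a and Ir25a, co-receptors of the ionotropic family, had no summit within 1 kb in any of the 12 lists. Ir76b, also a co-receptor, had one in all 10 early lists with fold enrichments of 2.22 to 3.81 and ranks of 24337 or worse, and none at 11-12 h. Orco, the co-receptor of the odorant receptors, lies outside the symbol rule and was open in the 10 early lists, with its best rank of 4598 in grhM−Z− at stage 6, and in neither list at 11-12 h.

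Genes that act with the receptors or upstream of them were counted in the same way. Of 17 accessory and channel genes (Orco, the binding protein gene lush, Snmp1 and others), 8 to 14 were open in the early lists, 2 in grhB37/B37 and 8 in grhB37/+ at 11-12 h, and 1 to 3 had a peak among the strongest 5000. Of 11 transcription factor genes that act in sensory neurons or in the choice of receptors, 10 or 11 were open in the early lists, 7 in grhB37/B37 and 11 in grhB37/+ at 11-12 h. Between 4 and 7 of them were among the strongest 5000. Dll, a homeobox gene of the appendages, ranked 75 to 1247 over the 12 lists, and the proneural gene ato, whose product starts sensory organs, ranked 15 to 555 at stage 5 and 413 to 2295 at stage 6.

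The maternal and zygotic experiment lists 11 embryos one by one, so that stages could be compared over embryos. More chemosensory genes were open in each stage 6 embryo than in each stage 5 embryo, with 75, 66 and 70 in grhM−Z− and 77 and 62 in grhM+Z+ at stage 6, and 60, 43 and 43 in grhM−Z− and 51, 43 and 55 in grhM+Z+ at stage 5. The means were 70.3 ± 4.51 in grhM−Z− (SD, n = 3) and 69.5 ± 10.6 in grhM+Z+ (SD, n = 2) at stage 6, and 48.7 ± 9.81 in grhM−Z− and 49.7 ± 6.11 in grhM+Z+ (SD, n = 3 each) at stage 5. All protein-coding genes went the same way, with 65.5% to 69.4% open in stage 6 embryos and 57.3% to 64.9% in stage 5 embryos. So did the lists, with 30660 to 36749 peaks in stage 6 embryos and 24961 to 32722 in stage 5 embryos, and the part of list length in the count was not tested. Among the strongest 5000 peaks of an embryo, 8 to 12 chemosensory genes had one at stage 6 and 6 to 10 at stage 5. The shares of all protein-coding genes at these peaks were 30.2% to 32.6% at stage 6 and 30.0% to 31.6% at stage 5. The genotypes overlapped at both stages.

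**Figure D3:**
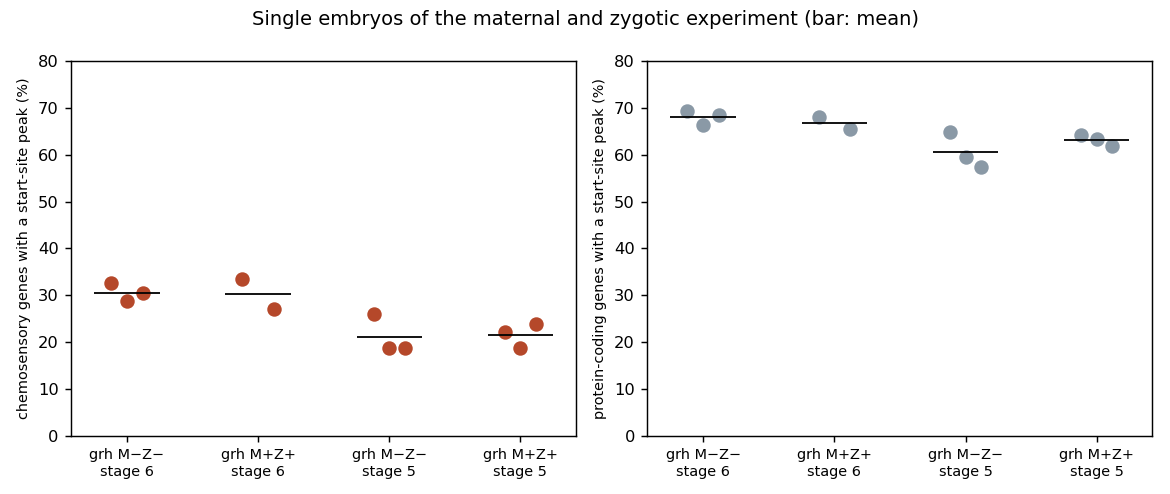
Percentage of the 230 chemosensory genes (left panel) and of all protein-coding genes (right panel) with a start-site peak in each of the 11 single embryos, with the mean of a group as a bar. Chemosensory genes reach 27.0% to 33.5% in stage 6 embryos and 18.7% to 26.1% in stage 5 embryos, and both genotypes overlap.

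Peak height could be compared for the 15 chemosensory genes with a summit in all 11 embryos, of 6762 protein-coding genes. The log2 fold enrichment of the strongest summit within 1 kb, centred on the median of each embryo, was fitted by limma with stage and genotype. With Benjamini-Hochberg adjustment over the 6762 genes, 4 of the 15 rose at stage 6 (Or88a, Obp99a, Gr2a and Or67b) and 1 fell (Ir68a), where 9.63% of all genes rose and 10.5% fell. The median difference was 0.01 over the 15 and -0.01 over all genes. Without centring, where the median of all genes moves to 0.15, 5 of the 15 rose and 1 fell, beside 19% and 2.75% of all genes. The other chemosensory genes lacked a summit in at least 1 embryo and were not tested for height in this fit.

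Or88a, an odorant receptor gene for fly odours (chr3R:14109445-14110823), gave the largest difference of the 15, at a peak that is nearer to CG12402. Its fold enrichment was 12.7, 18.5 and 12.6 in grhM−Z− and 12.6 and 14.8 in grhM+Z+ at stage 6, against 5.27, 4.39 and 5.15 in grhM−Z− and 7.33, 5.57 and 7.14 in grhM+Z+ at stage 5. The stages did not overlap. The difference was 1.16 on the log2 scale (SE 0.13, limma adjusted p = 5.14e-05). In the pooled lists, with 1 value each and no spread, Or88a had 12.9 in grhM− and 12.6 in grhM+ at stage 6, against 8.07 and 4.40 at stage 5. At 11-12 h it had 2.70 in grhB37/B37 and 6.01 in grhB37/+, where the ranks were 2611 and 167.

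Or67b rose at the Cyp40 start. Its fold enrichment was 12.1, 14.4 and 12.2 in grhM−Z− and 11.8 and 15.2 in grhM+Z+ at stage 6, against 9.19, 6.45 and 11.4 in grhM−Z− and 9.85, 7.99 and 7.46 in grhM+Z+ at stage 5. The stages came close but did not overlap, and the log2 difference was 0.45 (SE 0.11, limma adjusted p = 0.00765).

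Obp99a rose by 0.63 on the log2 scale (SE 0.11, limma adjusted p = 0.000818). It had 6.13, 5.50 and 5.84 in grhM−Z− and 6.21 and 6.14 in grhM+Z+ at stage 6, against 3.10, 3.0 and 3.52 in grhM−Z− and 4.38, 3.76 and 3.31 in grhM+Z+ at stage 5. No stage 5 embryo reached the lowest stage 6 embryo. Its own start was nearest to the summit in each of the 12 lists.

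Gr2a had 9.23, 9.91 and 8.80 in grhM−Z− and 5.26 and 7.48 in grhM+Z+ at stage 6, against 5.77, 4.93 and 4.30 in grhM−Z− and 4.26, 4.75 and 5.09 in grhM+Z+ at stage 5. One grhM+Z+ embryo at stage 6 lay within the range of stage 5. The log2 difference was 0.53 (SE 0.15, limma adjusted p = 0.0196), and without the first or the third grhM−Z− embryo of stage 6 the adjusted p was 0.051 and 0.05.

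Ir68a, a receptor gene for humid air (chr3L:11232972-11236218), was the one that fell, at a summit 112 to 201 bp from the start of lncRNA:CR44719. Its fold enrichment was 4.33, 5.49 and 3.65 in grhM−Z− and 3.40 and 3.12 in grhM+Z+ at stage 6, against 7.50, 5.59 and 7.17 in grhM−Z− and 7.26, 7.70 and 7.05 in grhM+Z+ at stage 5. The stages did not overlap, and the log2 difference was -1.01 (SE 0.13, limma adjusted p = 0.000112). This summit, too, was near the edge of the window, at 942 bp from the Ir68a start in grhM+Z+ at stage 5. In grhM−Z− at stage 5 the strongest summit of the joined peak lay beyond 1 kb. In the pooled lists Ir68a had 3.33 in grhM− and 4.07 in grhM+ at stage 6, against 7.39 and 6.93 at stage 5, and it had no summit at 11-12 h.

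**Figure D4:**
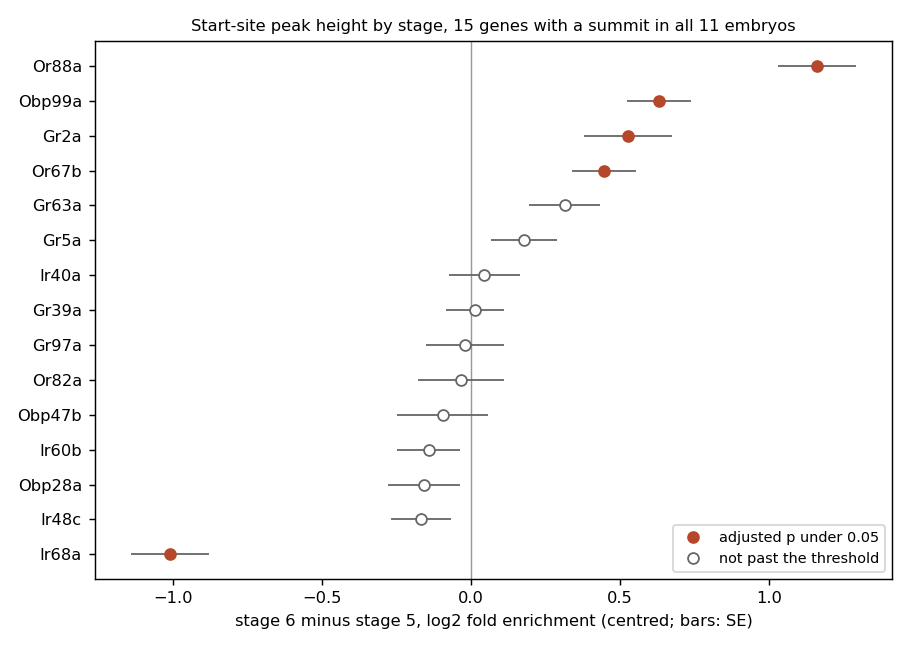
Difference in centred log2 fold enrichment, stage 6 minus stage 5, of the 15 chemosensory genes with a start-site summit in all 11 embryos, with the standard error of the limma fit; filled points have an adjusted p under 0.05. Or88a lies at 1.16 and Ir68a at -1.01, and 10 genes do not pass the threshold.

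**Figure D5:**
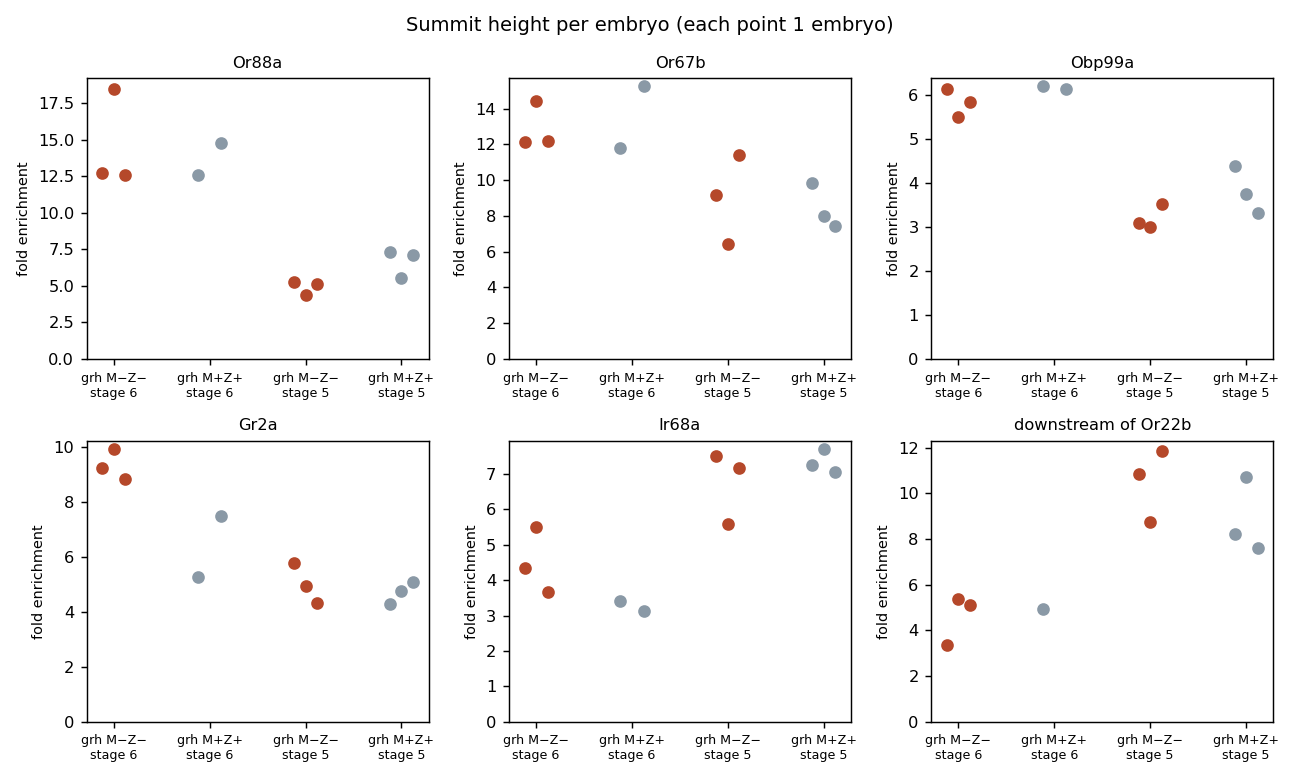
Fold enrichment of the strongest start-site summit in each embryo for the 5 genes past the threshold, and of the peak downstream of Or22b, where 1 grhM+Z+ embryo at stage 6 has no peak and no point. In the panels of Or88a, Or67b and Obp99a each stage 6 embryo lies above each stage 5 embryo, and in those of Ir68a and the Or22b peak each lies below.

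The windows of the 3 neighbour-shared peaks that changed are shown to set them beside those of the own starts, in the same format and with the same capitals, at chr3R:14108536-14108636 (Or88a and CG12402), chr3L:9630034-9630134 (Or67b and Cyp40) and chr3L:11237110-11237210 (Ir68a and lncRNA:CR44719).
Or88a: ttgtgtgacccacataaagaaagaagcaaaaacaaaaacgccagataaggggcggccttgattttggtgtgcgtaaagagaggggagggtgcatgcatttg
Or67b: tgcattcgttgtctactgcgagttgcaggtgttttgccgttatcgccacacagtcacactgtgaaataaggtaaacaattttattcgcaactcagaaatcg
Ir68a: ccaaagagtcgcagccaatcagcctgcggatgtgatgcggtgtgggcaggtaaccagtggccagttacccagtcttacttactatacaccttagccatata
None of the searched strings is in these 3 windows.

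Other members of the 15 stayed short of the threshold. Gr63a had 12.8, 17.7 and 13.2 in grhM−Z− and 12.5 and 15.5 in grhM+Z+ at stage 6, against 12.7, 7.60 and 11.1 in grhM−Z− and 11.7, 10.3 and 8.61 in grhM+Z+ at stage 5, a log2 difference of 0.31 (SE 0.12, limma adjusted p = 0.0705). Gr39a differed by 0.01 (SE 0.10, limma adjusted p = 0.937) and Ir40a by 0.04 (SE 0.12, limma adjusted p = 0.825).

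Genes with a peak in only some embryos were compared by presence. Of 136 chemosensory genes with a peak in 1 to 10 embryos, 0 passed Fisher's exact test (two-sided, Benjamini-Hochberg over 4945 genes), as did 0% of all genes in either direction. At an unadjusted p under 0.05 there were 9 of the 136, beside 6.41% of the 4945 genes. The smallest exact p this design allows is 0.00216, which came to 0.111 after adjustment. That value was reached by Gr64f, a co-receptor for sugars, the caffeine receptor gene Gr93a, Obp56e and Or42a, a receptor gene for fruit odours, each with a peak in 5 of 5 stage 6 embryos and 0 of 6 stage 5 embryos. How many of the 4945 genes reached it was not counted, so these genes are named as a description only. The fold enrichments at stage 6 were 4.85, 3.44 and 6.22 in grhM−Z− and 5.21 and 4.98 in grhM+Z+ for Gr64f, and 2.40, 3.37 and 2.40 in grhM−Z− and 3.33 and 3.48 in grhM+Z+ for Gr93a.

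Between lists, a gene counted as gained or lost when it had one of the strongest 5000 peaks in one list and none of the strongest 15000 in the other. Obp28a was counted as lost at stage 6 in grhM− (1.38% of all protein-coding genes with such a peak), but its summit within 1 kb stood at 6.70 at stage 6 against 6.69 at stage 5, and the strongest summit of the joined peak had moved beyond 1 kb. No chemosensory gene was gained there (1.34%). Or88a was counted as gained in grhM−Z− (0.869%), with 18.5 at stage 6 against 5.27 at stage 5, where the joined peak also had its strongest summit beyond 1 kb, and 0 were lost (0.86%). Ir68a was counted as lost in grhM+Z+ (0.605%), with 3.40 at stage 6 against 7.70 at stage 5, and 0 were gained (0.826%). In grhM+ 0 genes were gained (5.55%) and 0 lost (1.72%).

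From stage 6 to 11-12 h the losses were larger than the gains. In grhB37/B37, 6 of the 12 chemosensory genes with such a peak at stage 6 were lost, namely Gr39a, Gr5a, Gr63a, Gr97a, Obp28a and Obp51a. Of all protein-coding genes with such a peak, 42.4% were lost. In grhB37/+, 4 of 13 were lost (10.5%), namely Gr63a, Ir40a, Obp28a and Obp51a. Except for Gr39a and Ir40a, these peaks were nearer to the start of a gene outside the families. Gained were Obp83g in grhB37/B37 (1 of 4, beside 14.9%) and Obp83g and Gr32a in grhB37/+ (2 of 8, beside 13.5%). The stages differ in read type, fragment selection and number of embryos per library, which cannot be told apart from the stage.

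Obp83g, whose nearest chemosensory neighbour starts 1268 bp away, had its summit 522 bp upstream of its start in grhB37/B37 and 523 bp upstream in grhB37/+ at 11-12 h, with fold enrichments of 3.46 and 4.02 and ranks of 1006 and 1843. At stage 6 it had 4.71 in grhB37/B37 and 4.80 in grhB37/+, with ranks of 21908 and 21538. The height of Obp83g was thus no greater at 11-12 h, and its rank was better in lists whose peaks were lower as a whole.

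Gr32a was open at 11-12 h only in grhB37/+, with a fold enrichment of 3.73, a rank of 3466 and 52 fragments 451 bp upstream of its start, and no summit in grhB37/B37. At stage 6 it had 6.16 in grhB37/B37 and 5.87 in grhB37/+, with ranks of 17888 and 18289. Those stage 6 summits were nearer to the start of Idua, 396 and 392 bp away, which lies 953 bp from the start of Gr32a.

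No chemosensory start passed the threshold between mutants and siblings where a test could be made. In the limma fit of grhM−Z− against grhM+Z+, 0 of the 15 genes passed in either direction, where 0.0148% of the 6762 genes rose and 0% fell, and 3 of the 15 had an unadjusted p under 0.05. The lowest p was that of Ir40a, with 6.43, 9.01 and 7.31 in grhM−Z− and 10.3 and 8.53 in grhM+Z+ at stage 6, and 6.21, 5.81 and 6.84 in grhM−Z− and 10.2, 7.01 and 8.51 in grhM+Z+ at stage 5. Its difference was -0.37 on the log2 scale (SE 0.12, limma adjusted p = 0.613), and the genotypes overlapped at stage 6 and not at stage 5. No difference in stage effect between the genotypes passed the interaction term (0 of 15 past the threshold in limma, beside 0% of the 6762 genes, and 2 with an unadjusted p under 0.05).

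Between mutant and sibling lists, gains were 0 in each of the 6 pairs. Of all protein-coding genes, 1.33% (grhM−) and 0.209% (grhM−Z−) were gained at stage 5, 0.36% (grhM−), 0.0475% (grhB37/B37) and 0.0446% (grhM−Z−) at stage 6, and 1.26% (grhB37/B37) at 11-12 h. Losses were Ir68a in grhM−Z− at stage 5 (0.224%), Obp28a in grhM− at stage 6 (0.217%), and Gr32a and Gr5a in grhB37/B37 at 11-12 h (20.1%). The shares lost are of all protein-coding genes with such a peak in the sibling list. The other pairs had 0 losses, beside 0.5% in grhM− at stage 5, 0.0717% in grhB37/B37 at stage 6 and 0.268% in grhM−Z− at stage 6. The first 2 rest on the strongest summit of a joined peak, since the summits within 1 kb were alike, at 7.17 in grhM−Z− against 7.70 in grhM+Z+ for Ir68a and 6.70 in grhM− against 7.06 in grhM+ for Obp28a. At 11-12 h the grhB37/B37 list holds 10509 peaks and the grhB37/+ list 20540, and the part of that in the losses was not tested.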

How the data were processed

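The members and gene lists were chosen with earlier results of these data known. ATAC-seq of 31 samples was analysed from 12 peak lists. Paired-end reads of single embryos were trimmed by the authors (Trimmomatic 0.36) and aligned to the dm6 assembly by Bowtie2. Multiply mapping reads and long fragments were dropped, so near-identical gene copies can lose signal. Libraries at 11-12 h were single-end and had no size selection. The authors called peaks with MACS2 (q-value 0.05, several summits per peak) on pooled replicates. In the maternal and zygotic experiment the deposited lists name embryos separately.

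Per the deposited files, each summit has a fold enrichment (a ratio over local background), a −log10 p, a −log10 q and a score of 10 times the −log10 q, as the authors' caller wrote them. Pileup and background were solved from the deposited fold and −log10 p, and 99.97% to 100% of pileups came within 0.05 of whole numbers. Read depth per sample is not given in the sources used here. Summits of overlapping peaks were joined (1 bp) and ranked by −log10 q. Start sites were those of the Ensembl 115 annotation without transposable elements. Its chromosome lengths contain every peak end. Named genes were Or22b, 3 co-receptors, members open in all 12 lists, at the strongest 5000 peaks by their own start, gained or lost in at least 2 stage pairs, open in both late lists and in no stage 5 list, or past a test. Others named as owners, as far peaks, at the smallest exact p or by role were chosen after their values were seen. Tests used limma 3.58.1 in R 4.3.3 and Fisher's exact test in scipy 1.17.1, checked on simulated data, with an adjusted p of 0.05 as threshold. Embryos are single animals, so p-values measure the spread between embryos. Alternatives were other windows, thresholds, ranks, scalings and left-out embryos.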

Additional observations from a re-analysis of the deposited data

How the results depend on the processing

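No paired analysis was possible because the embryo names in the peak lists do not match the replicate numbers of the labels. Some orders turned with the setting: among the strongest 5000 peaks stage 6 was above stage 5 (10.3 and 8.5) but not in a 500 bp window (3.5 and 3.75), and losses outnumbered gains between early stages, and between mutants and siblings at 11-12 h, but not for the strongest 10000. Mean open chemosensory genes per list were 78.2 at stage 5, 123 at stage 6 and 23 at 11-12 h. A 500 bp window gave 44.5, 76.7 and 8, and a 2000 bp window 146 at stage 5 and 50.5 at 11-12 h. A −log10 q of at least 5 gave 26.5, 63.5 and 8, and of at least 10 gave 16.8, 36 and 5. Requiring a peak in every embryo gave a mean of 45 at stage 5. This could lower only the lists that name embryos, grhM−Z− and grhM+Z+. The pooled grhM− and grhM+ lists stay at 78 and 63, so the fall in the other lists is larger than this mean shows. The strongest 30000 peaks gave 45.8 and 56.8. This setting was chosen after seeing the data, as was leaving out the zygotic lists at stage 6 (102) or the shorter list at 11-12 h (29). The strongest 5000 peaks held 8.5, 10.3 and 6 chemosensory genes, with 3.75, 3.5 and 1.5 in a 500 bp window, 15.5, 19 and 15 in a 2000 bp window, 1.75, 4.17 and 2.5 for the strongest 2000, and 13.5 at 11-12 h for the strongest 10000. The own start was nearest for 83.1%, 86.5% and 75% in a 500 bp window, for 56.4%, 59.7% and 40.5% in a 2000 bp window, and for 77.3% at stage 5 with protein-coding starts alone, instead of 73.2%, 77.7% and 65.1%.

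Between early stages 1 gene was gained and 2 lost, which became 8 and 5 for the strongest 10000, 4 and 1 with ranks by fold enrichment, and 1 lost for the strongest 2000. Towards 11-12 h 3 were gained and 10 lost, which became 13 and 17 for the strongest 10000 and 3 lost for the strongest 2000. Between mutants and siblings 0 were gained and 2 lost in the early pairs, which became 1 and 4 for the strongest 10000 and 1 lost for the strongest 2000. At 11-12 h 0 were gained and 2 lost, which became 8 and 7 for the strongest 10000 and 0 lost for the strongest 2000. In limma, leaving out single embryos gave 3 to 5 genes higher at stage 6 and 1 lower. With a summit in at least 6 embryos 2 were lower, and in a 500 bp window 0 were higher and 0 lower, with 4 genes tested. None of Or88a, Obp99a, Gr2a, Or67b and Ir68a was among these 4, since each lacked a summit within 500 bp in at least 1 embryo. Gr63a passed without centring (limma adjusted p = 0.0258) and without the first grhM−Z− embryo of stage 5 (0.0316).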
